A study of Mus musculus with 12 samples.

Results

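Glycolysis and lactate handling were followed through 32 genes in RNA-seq libraries of mouse LSK cells, a bone marrow fraction gated as lineage-negative, Sca-1-positive and Kit-positive, in which the blood stem cells are found. The genes were taken by symbol from a fixed list of glucose transporters, glycolytic enzymes and their regulators, lactate dehydrogenases, monocarboxylate transporters and the pyruvate dehydrogenase switch. The rule used no measured value, but the list was drawn up with earlier results of these data known. They are 32 of the 55471 genes in the count table, and all 32 were among the 17063 genes that passed a filter on low counts. The mice were primary transplant recipients, sampled 6 weeks after tamoxifen, an agent commonly used to switch on a recombinase. The recombinase driver, the strain, the age of the mice and any host cells left are not given in what was used here. There were 6 groups of 2 libraries. One experiment compared WT with Hoxa9_KO, with Bcat_KO, in which Ctnnb1 (the gene of β-catenin) was targeted, and with dKO, in which Hoxa9 and Ctnnb1 were targeted together. The other compared WT_Prmt1, its own wild type, with Prmt1_KO. Titles call the targeted groups KO, whereas the genotype field calls them knockdown. The title of the series connects β-catenin and Hoxa9, through Prmt1, with DNA replication and stem cell function.

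As background, glycolysis splits glucose into pyruvate, and its flow is set mainly at glucose uptake, hexokinase, phosphofructokinase and pyruvate kinase. Pyruvate is then either reduced to lactate by lactate dehydrogenase and exported through monocarboxylate transporters, or passed to mitochondria through pyruvate dehydrogenase, which the pyruvate dehydrogenase kinases switch off. Quiescent blood stem cells are known for relying on glycolysis and for using these kinases to hold pyruvate back from mitochondria.

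Libraries held 17569709 to 40553891 counts. Values are CPM, the counts of a gene relative to the TMM-scaled total of its library, and a change is a log2 fold change ± SE, estimated from 2 libraries in each group by an edgeR quasi-likelihood fit of all 12 libraries. A gene was called when its Benjamini-Hochberg adjusted p over all 17063 genes was under 0.05. Each library is named by its group and by the S tag of its column. No label says whether libraries of 1 group are different mice, and p-values may then reflect only technical spread. Targeted genes were lower as labelled: Hoxa9 fell by 2.53 in Hoxa9_KO and by 2.71 in dKO, Prmt1 fell by 1.33 in Prmt1_KO, and Ctnnb1 fell by only 0.28 in Bcat_KO and by 0.51 in dKO. Summed CPM of the 10 LSK markers lay between 1435 and 2239 in every library, and Kit was at 139 CPM or more throughout, but single markers of the sorted population moved. Slamf1, a stem cell marker, rose in all 4 comparisons with wild type, by 0.96 in Bcat_KO and by 2.32 to 3.20 in the others, and Kit rose in all 4, by 0.52 to 1.17. Cd34 and Flt3, markers of early progenitors, fell by 0.95 and 1.54 in Hoxa9_KO and by 1.71 and 2.15 in dKO, and Flt3 by 0.89 in Bcat_KO. Xist was at 163 to 202 CPM in the 4 wild-type libraries and at 21.9 CPM or less in the 8 others, while the Y-linked Ddx3y was at 60.6 to 93.4 CPM in those 8 and at 2.86 CPM or less in wild type. Each difference between a targeted group and its wild type therefore cannot be told apart from a difference between libraries that carry a Y-linked transcript and libraries that do not. In dKO against Hoxa9_KO or Bcat_KO, Ddx3y was not called (0.08 and 0.13), whereas Xist was lower in dKO than in Bcat_KO (-4.99). WT S1 carried more RNA of mature blood cells than WT S2, with an erythroid marker sum of 1346 against 392 CPM and a granulocyte marker sum of 2483 against 1010.0 CPM. Because these are bulk samples, fewer cells of a type and less RNA per cell cannot be told apart.

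Hexokinase 1 and hexokinase 3, which trap glucose in the cell as glucose-6-phosphate, are the members with the smallest adjusted p whose promoter windows lie clear of every exon in the count table, so their 250 bases before the most upstream RefSeq start (GRCm38.p6) are shown. Hk1 lies on the minus strand of chromosome 10 and its window is chr10:62379909-62380158. Hk3 lies on the minus strand of chromosome 13 and its window is chr13:55021386-55021635. Capitals mark a match, on either strand, to the core of the hypoxia response element (ACGTG or GCGTG), the E-box (CACGTG, which contains ACGTG), the CCAAT box (CCAAT) or the GC box (GGGCGG).
Hk1: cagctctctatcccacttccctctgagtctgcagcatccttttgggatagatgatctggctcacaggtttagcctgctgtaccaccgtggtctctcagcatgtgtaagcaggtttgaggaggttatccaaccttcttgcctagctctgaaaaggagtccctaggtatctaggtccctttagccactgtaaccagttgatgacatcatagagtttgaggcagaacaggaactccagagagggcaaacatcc
Hk3: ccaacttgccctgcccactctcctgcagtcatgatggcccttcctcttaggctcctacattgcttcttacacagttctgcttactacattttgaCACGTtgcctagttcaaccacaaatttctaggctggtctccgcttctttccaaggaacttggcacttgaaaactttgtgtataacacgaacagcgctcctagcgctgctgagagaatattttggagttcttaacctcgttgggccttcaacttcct
The Hk1 window held no match to any of the 4 motifs, and the Hk3 window held 1, to the hypoxia response core on the opposite strand. Which start these cells used is not known from the files. Across the 31 members with an entry in the RefSeq promoter table, 23 windows (74.2%) held the hypoxia response core, against 38.6% of 27025 promoters of the same length. The E-box was found in 12.9% of the members' windows against 6.04% of all, the CCAAT box in 32.3% against 34.5%, and the GC box in 48.4% against 33%. The members' windows had a median GC content of 58.4%, against 52% over all promoters, and the part of base composition in the motif shares was not tested. Of the members that were higher in Prmt1_KO, 13 of 17 with an entry held the hypoxia response core, and of the other members 10 of 14 did.

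Levels within the pathway were compared per kilobase of exon. Averaged over the 12 libraries, Gapdh, which oxidises glyceraldehyde-3-phosphate, stood highest at 389 CPM per kilobase. It was followed by the pyruvate kinase Pkm at 251, lactate dehydrogenase A (Ldha) at 239.9 and aldolase A (Aldoa) at 179.5 CPM per kilobase. Pfkfb1, Eno2, Pfkfb2 and Pklr were the 4 lowest, between 0.298 and 0.713 CPM per kilobase, so the liver-type pyruvate kinase and the neuronal enolase contributed little. Most steps were thus carried by 1 or 2 genes. Pkm made up 99.0% or more of the pyruvate kinase family in every library, Aldoa at least 94.4% of the aldolases and Eno1 at least 92.3% of the enolases.

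**Figure D1:**
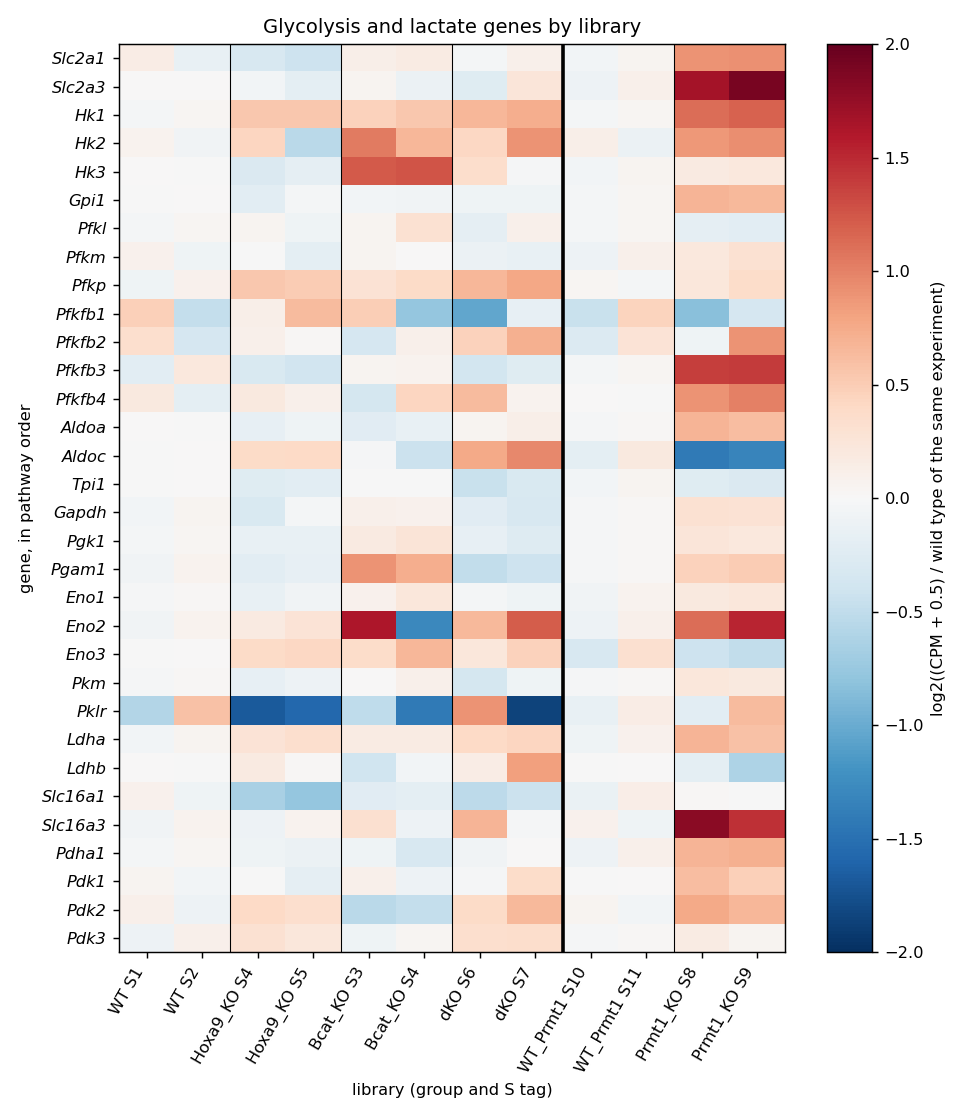
Log2 ratio of CPM + 0.5 in each of the 12 libraries to the mean of the wild-type libraries of the same experiment, for the 32 genes in pathway order; the thick line separates the experiments. Hk1 is red in all 8 targeted libraries, and the Prmt1_KO columns hold most of the strong reds, led by Slc2a3.

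Of the 4 comparisons with wild type, Prmt1_KO against WT_Prmt1 had the most members called. Transcripts that rose included those of glucose transporters, hexokinase 1, Gpi1, Pfkfb3, Aldoa, Ldha, Pdha1 and the kinases Pdk1 and Pdk2. In Prmt1_KO against WT_Prmt1, 18 of 32 genes rose and 2 fell, against a background of 32.5% of all genes called (16.6% higher and 16.0% lower). Members called made up 62.5% of the list. The median change of the members was 0.41 on the log2 scale, against -0.03 over all genes tested. In WT_Prmt1 against WT, the members' median was -0.19, against -0.01 over all genes. The members' CPM added up to 7159.8 and 7601 before loss of Prmt1 and to 9865 and 9737 after it. With 2 against 2 libraries, no exact two-sided permutation p can be under 0.33, so that sum was not tested. With scaling by library size alone the median of all genes shifted by -0.14 and the members' median was 0.27, which left the members 0.44 above all genes. The split of all calls then moved from 50.9% to 36.4% higher, and the members' split from 18 higher and 2 lower to 13 higher and 3 lower.

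**Figure D2:**
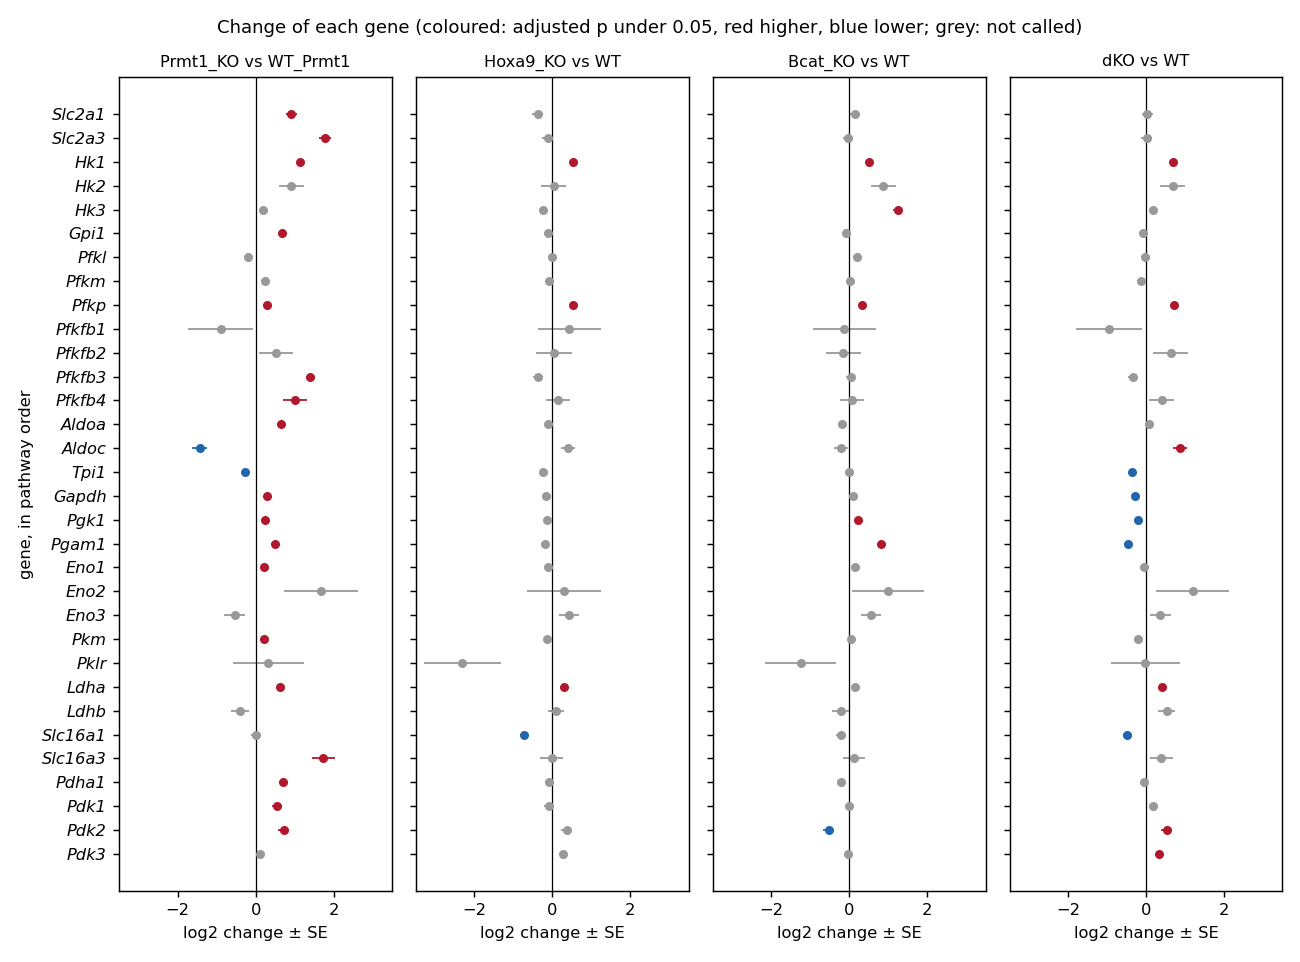
Log2 change ± SE of each of the 32 genes in the 4 comparisons of a targeted group with its wild type, in pathway order; red and blue points passed an adjusted p of 0.05 upward and downward, and grey points did not. Prmt1_KO has 18 red points, and Hk1 and Pfkp are red in each of the 4 panels.

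Transcripts of both glucose transporters and of 1 of the 3 hexokinases rose. Slc2a3, the high-affinity glucose transporter GLUT3, was at 60.1 and 70.0 CPM in WT_Prmt1 and at 206 and 242 CPM in Prmt1_KO. The rise was 1.78 ± 0.15, or 3.44-fold (edgeR adjusted p = 1.75e-06). The transporter GLUT1, encoded by Slc2a1, rose by 0.92 ± 0.14 (edgeR adjusted p = 5.31e-05). Hk1, the housekeeping hexokinase, stood at 176 and 187 CPM in WT_Prmt1 and at 394 and 409.5 CPM in Prmt1_KO. Its rise of 1.14 ± 0.07, or 2.21-fold, had the smallest adjusted p of any member (6.25e-09). Hk2, the inducible hexokinase, was at 27.6 and 23.4 CPM against 46.8 and 49.1 CPM but did not pass the test (0.91 ± 0.32, adjusted p = 0.0687), and Hk3 changed by 0.19 ± 0.11 (0.195). Per length, Hk1 went from a mean of 46.6% to 60.3% of the hexokinases.

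In the upper part of the pathway, the enzymes on either side of phosphofructokinase rose while phosphofructokinase itself moved little. Gpi1, which converts glucose-6-phosphate to fructose-6-phosphate, was at 839.9 and 887 CPM in WT_Prmt1 and at 1384 and 1359.6 CPM in Prmt1_KO, and the 8 libraries of the other experiment spanned 754 to 876 CPM. Both Prmt1_KO libraries lay above all 10 others, with a change of 0.67 ± 0.07 (adjusted p = 8.46e-07). Pfkfb3, which makes fructose-2,6-bisphosphate, the strongest activator of phosphofructokinase, was at 47.6 and 50.7 CPM in WT_Prmt1 and at 129 and 131 CPM in Prmt1_KO. This was a 2.64-fold rise (1.40 ± 0.12, adjusted p = 1.68e-07) to levels above every other library. Pfkfb4, a related enzyme at low level, rose by 1.00 ± 0.31 (0.0176), and leaving out any 1 of the 4 libraries ended that call (0.0507 to 0.0973). Of the phosphofructokinases, Pfkl changed by -0.19 ± 0.10 (0.155) and Pfkm by 0.25 ± 0.10 (0.0643), and Pfkp rose by 0.30 (0.0297), lost without Prmt1_KO S9 (0.247), WT_Prmt1 S10 (0.0776) or WT_Prmt1 S11 (0.15) and with library-size scaling (0.291).

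The aldolases went opposite ways. Aldoa, the main aldolase, was at 417 and 429 CPM in WT_Prmt1 and at 676 and 648 CPM in Prmt1_KO, a rise of 0.64 ± 0.07 (adjusted p = 1.63e-06). Aldoc, known as the brain-type aldolase, was at 19.4 and 25.8 CPM against 8.08 and 8.69 CPM and fell by 1.43 ± 0.19 (1.43e-05). Its per-length share of the aldolases went from a mean of 4.54% to 1.12%. Below the aldolase step, Pgam1, which moves the phosphate of 3-phosphoglycerate, was at 81.8 and 84.4 CPM against 115 and 119 CPM and rose by 0.49 ± 0.09 (4.88e-04). Tpi1, which interconverts the triose phosphates, fell by 0.27 (0.00831) from 423 and 457 to 373 and 360.2 CPM, a call lost without Prmt1_KO S9 (0.0851) or WT_Prmt1 S11 (0.174). Gapdh, Pgk1, Eno1 and Pkm rose by 0.21 to 0.30, and all 4 calls were lost with library-size scaling (adjusted p of 0.0844, 0.385, 0.512 and 0.6). The calls of Pgk1, Eno1 and Pkm were also lost without Prmt1_KO S8 (0.103, 0.088 and 0.158), Prmt1_KO S9 (0.0766, 0.172 and 0.0997) or WT_Prmt1 S10 (0.134, 0.278 and 0.182), and that of Pkm without WT_Prmt1 S11 (0.064).

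At the end of the pathway, Ldha and the lactate exporter Slc16a3 rose while their relatives Ldhb and Slc16a1 were not called. Ldha, the form that favours lactate production, was at 566 and 642 CPM in WT_Prmt1 and at 969 and 900.4 CPM in Prmt1_KO (0.63 ± 0.07, adjusted p = 4.18e-06). Ldhb, the form that favours pyruvate, was at 51.5 and 51.6 against 45.2 and 33.4 CPM and was not called (-0.40 ± 0.22, 0.205). Per length the ratio of Ldha to Ldhb went from 5.21 and 5.9 to 10.2 and 12.8 with loss of Prmt1, and was between 4.42 and 8.76 in the 8 libraries of the other experiment. Slc16a3, which encodes the lactate exporter MCT4, rose by 1.74 ± 0.30 (2.21e-04) from 4.97 and 4.40 to 17.6 and 13.7 CPM. It shares 306 exon bases with Csnk1d on the opposite strand, and whether the counting used strand is not known here. Slc16a1, which encodes MCT1, was level (0.00 ± 0.11, 0.986).

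Pdha1, the catalytic E1 alpha subunit of pyruvate dehydrogenase, was at 160 and 185 CPM in WT_Prmt1 and at 276 and 283 CPM in Prmt1_KO (0.69 ± 0.09, adjusted p = 1.71e-05). Inhibitory kinases of this enzyme rose beside it. Pdk2 was at 27.9 and 25.9 against 45.8 and 43.0 CPM (0.72 ± 0.14, 5.54e-04), and Pdk1 rose by 0.55 ± 0.12 (0.00168). The third kinase, Pdk3, changed by 0.11 ± 0.10 (0.446), and its mean per-length share of the 3 kinases was 58.4% in WT_Prmt1 and 49.4% in Prmt1_KO. The other subunits did not rise: Dlat, the E2 subunit, fell by 0.36 (0.00769), and Pdhb (-0.07), Dld (0.11) and Pdhx (-0.21) were not called.

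Of the 20 calls in Prmt1_KO, 13 were made in all of the 14 other fits tried, while Gapdh, Tpi1, Pfkfb4, Pgk1, Pfkp, Eno1 and Pkm were lost in at least 1. Pkm was called in 7 of the 14, and Eno1 and Pfkp in 9 each. Markers of other blood cells moved with this comparison. The 13 granulocyte markers summed to 1540.3 to 1657 CPM in WT_Prmt1 and 6196 to 6555 CPM in Prmt1_KO with 3 called higher, all genes of primary granules. These were Mpo, from 519 and 557 to 2038 and 2196 CPM, Ctsg, from 80.1 and 76.7 to 677 and 667 CPM, and Prtn3, from 163 and 162 to 1176 and 1111 CPM. All 7 megakaryocyte markers rose, from a sum of 82.4 to 83.3 CPM to 1011 to 1048 CPM. Among the 4 mast cell markers 3 rose, all 6 B cell markers fell, from a sum of 596 to 616 CPM to 60.5 to 63.5 CPM, and 6 of 12 erythroid markers fell while 3 rose. Of 6 T and NK cell markers 3 fell and 1 rose. The 6 endothelial and stromal markers, of which 2 fell and 1 rose, summed to 281 to 451 CPM in WT_Prmt1 and 145 to 147 CPM in Prmt1_KO, and among them Col1a1, a collagen gene of stromal cells, went from 144 and 313 to 1.53 and 1.51 CPM (-7.23, adjusted p = 2.49e-04). Of the 10 LSK markers 5 rose, led by Slamf1 (3.20), Ly6a, the gene of Sca-1 (1.61), and Kit (1.17), and Cd48 fell by 0.90. No granulocyte or erythroid marker was at 0 in these 4 libraries. The part of these cell types in the changes of the glycolysis genes was not tested.

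**Figure D3:**
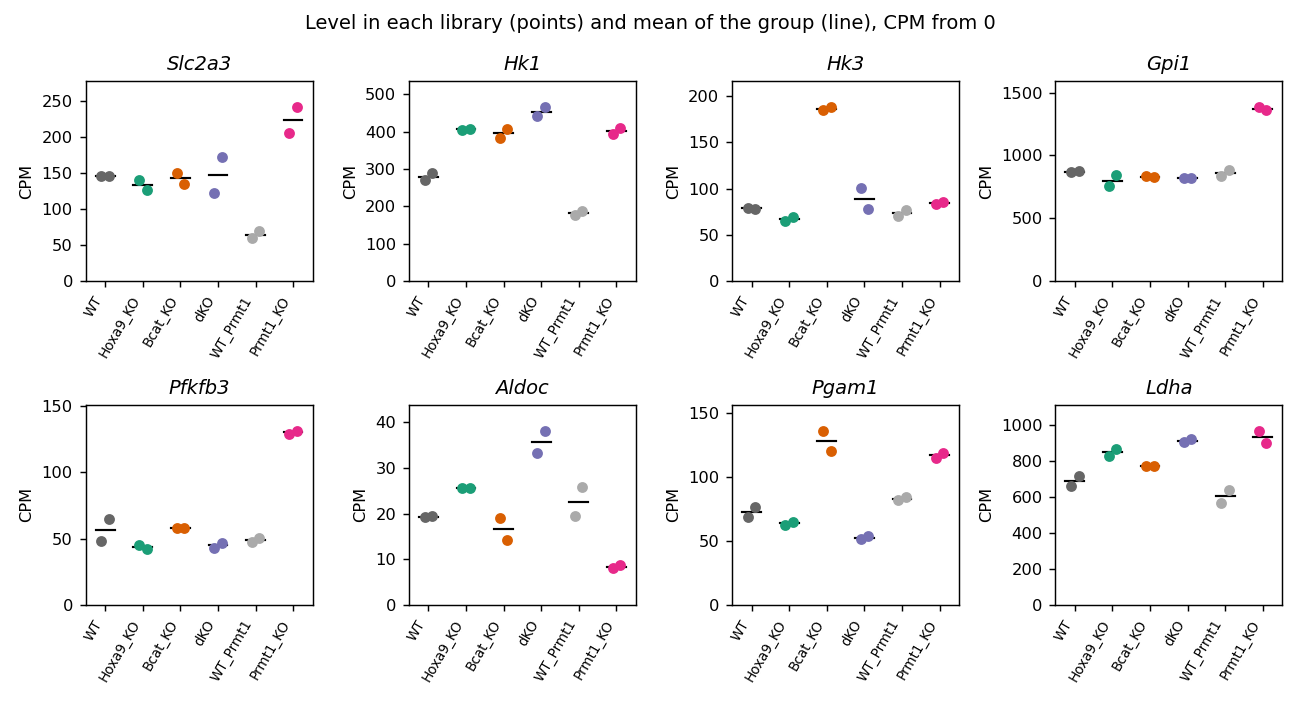
CPM of 8 genes in each library (points) with the mean of each group (line), on axes that start at 0. Prmt1_KO stands above all other groups in Slc2a3, Gpi1 and Pfkfb3 and below them in Aldoc, and Bcat_KO stands alone in Hk3.

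The wild types of the experiments differed in some of these genes, which bears on how the levels read. In WT_Prmt1 against WT, 7 of 32 members were called, 1 higher and 6 lower, against a background of 7.58% of all genes (3.71% higher and 3.87% lower). The members' median was -0.19 against -0.01 over all genes, with 25 members below 0 and 7 above. Hk1 was lower by 0.62 ± 0.07 (edgeR adjusted p = 3.68e-05), with 271 and 288 CPM in WT. Slc2a3 was lower by 1.17 ± 0.15 (3.62e-04), with 146 CPM in each WT library. The Prmt1_KO libraries, at 394 and 409.5 CPM for Hk1 and at 206 and 242 CPM for Slc2a3, lay above WT as well. Other rises ended nearer to WT: Pdk1 went from 88.0 and 89.5 CPM to 137 and 124 CPM, with 121 and 111 CPM in WT. Leaving out WT S1 or WT_Prmt1 S10 brought the 7 calls to 2. Cell markers differed between these wild types too. In WT_Prmt1, 5 of 7 megakaryocyte markers were lower and 1 higher (list median -1.95), and 4 of 10 LSK markers were lower and 1 higher, with Kit at -0.93. Of 6 T and NK cell markers 2 were higher, among them Cd8a (3.32, 0.00727), and 1 was lower, Nkg7 (-1.22, 0.0475). Of 12 erythroid markers 2 were lower, as was 1 of 4 mast cell markers. Of 6 endothelial and stromal markers 2 were higher, with Col1a1 at 6.53 (0.00185). No granulocyte or B cell marker was called. Their part in the member differences was not tested.

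Hoxa9_KO had 4 members called, or 12.5% of the list. In Hoxa9_KO against WT, 3 rose and 1 fell of 32, against a background of 6.73% of all genes called (4.44% higher and 2.30% lower), and the members' median change was -0.10 against -0.00 over all genes. DESeq2 called 7 members, with a background of 12.3%. Hk1 rose by 0.54 ± 0.07 (adjusted p = 1.58e-04), from 271 and 288 CPM in WT to 405 and 408 CPM. Slc16a1, the lactate and pyruvate transporter MCT1, was at 81.5 and 72.4 CPM in WT and at 48.9 and 44.6 CPM in Hoxa9_KO (-0.72 ± 0.11, 5.37e-04). For a single gene, 2 against 2 libraries cannot give an exact two-sided permutation p under 0.33. Pfkp, the platelet-type phosphofructokinase, rose by 0.53 ± 0.10 (0.00374) from 42.6 and 48.4 to 66.4 and 64.8 CPM, a call lost without WT S1 (0.094). Ldha rose by 0.30 ± 0.07 (0.019) from 663 and 716 to 831 and 867 CPM, a call lost without WT S1 (0.292) or Hoxa9_KO S5 (0.105). In the 14 other fits tried, Hk1 and Slc16a1 were called in all, Pfkp in 13 and Ldha in 11. Pfkp shares 748 exon bases with Pitrm1 on the opposite strand. Beside these changes, 6 of 7 megakaryocyte markers rose, from a sum of 199.7 to 243 CPM in WT to 849.7 to 918 CPM, none of the 13 granulocyte markers was called, and their sum was 383 in Hoxa9_KO S4 and 1773 CPM in Hoxa9_KO S5. Of the 10 LSK markers 4 rose and 2 fell, 1 of 4 mast cell markers rose, 1 of 6 T and NK cell markers fell, and no erythroid or B cell marker was called. The part of these cells was not tested.

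In Bcat_KO, Hk3 rose in addition to Hk1. In Bcat_KO against WT, 5 members rose and 1 fell, against a background of 17.2% of all genes called (7.48% higher and 9.76% lower), and the median change was 0.05 against -0.04. Hk3, known as a myeloid hexokinase, went from 79.4 and 78.1 CPM in WT to 185 and 188 CPM in Bcat_KO, above all 10 other libraries. Its rise was 1.24 ± 0.11 (adjusted p = 1.55e-06). Pgam1 rose by 0.82 ± 0.09 (2.31e-05) from 68.7 and 76.5 to 136 and 120.4 CPM, and Hk1 by 0.50 ± 0.07 (2.46e-04) to 384 and 407 CPM. These 3 calls held in all of the 13 other fits. Per length, Hk3 went from a mean of 35.2% to 46.4% of the hexokinases. Pdk2 fell by 0.52 ± 0.14 (0.0166) from 29.8 and 25.7 to 18.9 and 19.8 CPM, a call lost without Bcat_KO S3 (0.0685) or WT S1 (0.14). Pfkp (0.34, 0.0316) and Pgk1 (0.22, 0.0432) passed the test narrowly, and each was lost without any 1 of the 4 libraries. Both were called in 6 of the 13 other fits, and Pdk2 in 10. Only 3 members were called with WT S1 left out. Beside the Hk3 rise, 1 of 13 granulocyte markers rose, the primary granule protease gene Prtn3, from 173 and 164 to 405 and 366 CPM, and 6 fell, with Ltf, Retnlg and Mmp9 at 0 in both libraries. The granulocyte sum was 1620.3 to 1694 CPM, within the WT range. Of 12 erythroid markers 8 fell, with Trim10 at 0 in both libraries. All 6 B cell markers fell (list median -3.67), as did 4 of 6 T and NK cell markers, while 4 of 7 megakaryocyte markers and 1 of 4 mast cell markers rose. Of the 10 LSK markers 2 rose and 2 fell, and of the 6 endothelial and stromal markers 1 rose and 1 fell. The part of these cells in the Hk3 change was not tested.

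In dKO, Hk1, Pfkp, Ldha and Aldoc rose and several enzymes of the lower pathway fell. In dKO against WT, 6 members rose and 5 fell, against a background of 17.7% of all genes called (9.15% higher and 8.52% lower), and the median change was 0.06 against 0.01. Hk1 was at 441 and 465 CPM (0.70 ± 0.07, adjusted p = 4.72e-06), Pfkp at 72.6 and 78.3 CPM (0.73 ± 0.10, 8.44e-05) and Ldha at 906 and 924 CPM (0.41 ± 0.07, 7.82e-04). Aldoc rose by 0.88 ± 0.18 (0.00235), from 19.3 and 19.4 CPM in WT to 33.2 and 38.1 CPM. With 2 against 2 libraries, an exact two-sided permutation p for any of these 4 genes cannot be under 0.33.

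Among the enzymes that were lower in dKO, Tpi1 fell by 0.37 ± 0.07 (adjusted p = 0.00145) from 508 and 509 CPM in WT to 375 and 413 CPM. Pgam1 fell by 0.47 ± 0.09 (0.00187) to 51.2 and 54.0 CPM, a call lost without WT S2 (0.0652). Gapdh fell by 0.27 ± 0.08 (0.0192), from 1514 and 1623 to 1344 and 1257 CPM, and Pgk1 by 0.21 ± 0.07 (0.0487), from 368 and 391 to 339.5 and 316 CPM. Each of those 2 calls was lost without WT S1 (0.0506 and 0.124), WT S2 (0.31 and 0.497) or dKO S7 (0.0999 and 0.301). Slc16a1 was at 53.3 and 56.8 CPM (-0.48 ± 0.11, 0.00503), lost without WT S1 (0.092). The kinases moved the other way: Pdk2 rose by 0.53 ± 0.14 (0.0114) to 36.4 and 43.8 CPM, lost without WT S2 (0.135) or dKO S7 (0.186), and Pdk3 rose by 0.34 ± 0.09 (0.0167) from 79.5 and 91.9 to 108 and 109 CPM, lost without WT S1 (0.244), dKO S6 (0.0603) or dKO S7 (0.0984). Without WT S2 the number of members called in dKO was 7. Of the 11 calls in dKO, 5 were made in all of the 14 other fits. All 7 megakaryocyte markers rose beside these changes, to a sum of 1357 to 1496 CPM, and none of the 13 granulocyte markers was called. Of 6 B cell markers 5 fell (list median -3.49), 2 of 4 mast cell markers rose, and of 10 LSK markers 3 rose and 4 fell. Of the 12 erythroid and the 6 endothelial and stromal markers 1 each rose, and 1 of 6 T and NK cell markers fell. Their part was not tested.

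**Figure D4:**
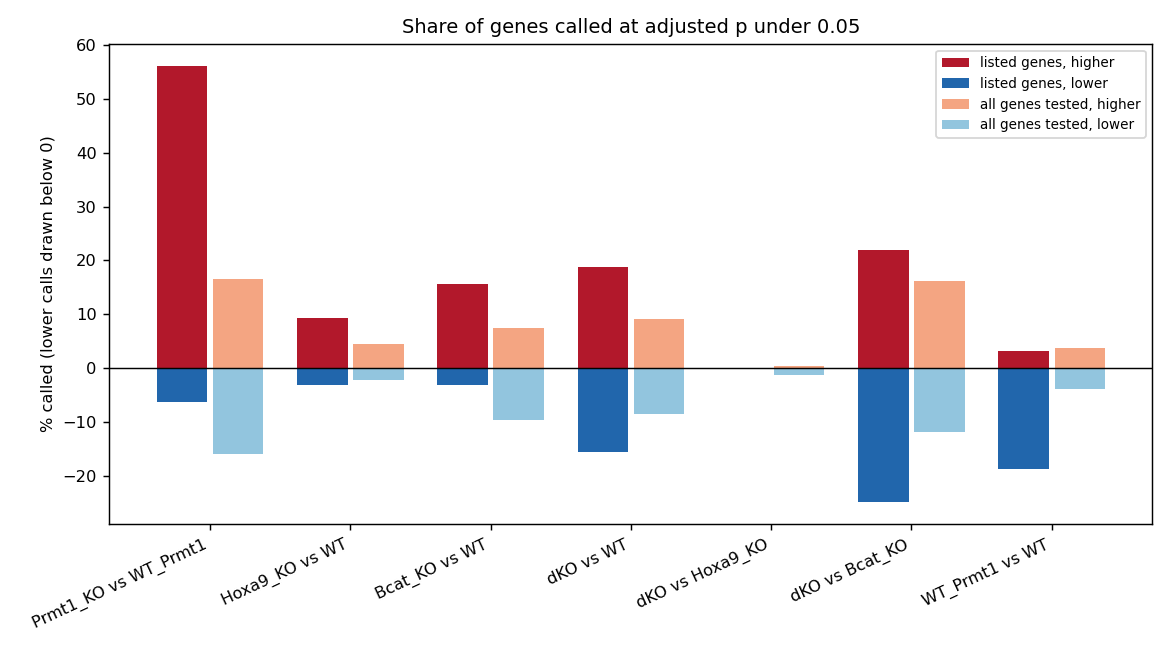
Percent of the 32 listed genes and of all 17063 genes tested that were called at an adjusted p under 0.05 in 7 comparisons, with lower calls drawn below 0. The listed genes that were higher in Prmt1_KO reach 56.2% against 16.6% of all genes.

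The double knockout was then set against each single knockout. Against Hoxa9_KO, edgeR called none of the 32 members, with a background of 1.75% of all genes (0.416% higher and 1.33% lower). Leaving out Hoxa9_KO S4 gave 1 call, and leaving out dKO S6 or dKO S7 gave 2. At an unadjusted p under 0.05 there were 9, with a background of 12.4% of all genes, and DESeq2 called 2, with a background of 4.68%. Hk3 came nearest, at 101 and 77.6 CPM in dKO against 64.7 and 69.1 CPM (0.42 ± 0.11, adjusted p = 0.0606). Against Bcat_KO, 15 members differed in dKO, with a background of 28.1% of all genes called. Pgam1 (-1.29 ± 0.09, 1.40e-07), Hk3 (-1.06 ± 0.11, 3.51e-06) and Pgk1 (-0.43 ± 0.07, 2.83e-04) were among the lower genes, and Pdk2 (1.05 ± 0.14, 3.65e-05) and Aldoc (1.09 ± 0.18, 2.91e-04) among the higher. Both Pgam1 and Hk3 were thus high in Bcat_KO and not in the group that lacked Hoxa9 as well. Cell markers differed in the same comparison: against Bcat_KO, 9 of 13 granulocyte markers were higher in dKO and 1 lower (list median 6.82), 7 of 12 erythroid and all 7 megakaryocyte markers were higher, 4 of 10 LSK markers were higher and 4 lower, and 3 of 6 T and NK cell markers were higher and 1 lower. Their part was not tested. Hoxa9_KO, Bcat_KO and dKO were each compared with the same WT libraries.

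Departure from additivity, the dKO change minus the sum of the single changes, was called for 5 members, 2 above and 3 below the sum, against a background of 8.43% (4.54% above and 3.90% below). Pgam1 (-1.10 ± 0.13, adjusted p = 1.08e-04) and Hk3 (-0.82 ± 0.15, 0.00364) were below the sum in every fit that left out a library. Hk1 was also below it (-0.34 ± 0.10, 0.0489): it had risen by 0.54 and 0.50 in the single knockouts and by 0.70 in dKO, and the call was lost without any 1 of the 8 libraries. Aldoa (0.39 ± 0.10, 0.02) and Pdk2 (0.68 ± 0.19, 0.0389) were above the sum. The Aldoa call was lost without Bcat_KO S3, WT S1, WT S2 or Hoxa9_KO S4, and that of Pdk2 without either Bcat_KO or Hoxa9_KO library, WT S1 or dKO S7. The count of calls fell to 2 without WT S1 or Hoxa9_KO S4, and to 3 without Bcat_KO S4, WT S2 or Hoxa9_KO S5. Of these 4 groups WT alone lacks the Y-linked transcripts, so the contrast also holds that difference: 4 of 5 sex-linked genes lay below the sum, by -3.84 to -4.60. Of 12 erythroid markers 7 lay above it, as did 3 of 13 granulocyte and 3 of 6 T and NK cell markers. A departure from additivity cannot be told apart from an offset of WT that all 3 targeted groups share.

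The change in dKO was also compared with the change in Prmt1_KO, each against its own wild type. The comparison thus also holds the difference between the wild types, in which 1 of 32 members was higher and 6 were lower in WT_Prmt1. Hk1 was at 441 and 465 CPM in dKO, above its 394 and 409.5 CPM in Prmt1_KO. Its wild types stood at 271 and 288 CPM (WT) and at 176 and 187 CPM (WT_Prmt1). The dKO change minus the Prmt1_KO change was below 0 for 13 of 32 members and above 0 for 1, against a background of 15.7% of all genes called (7.75% below and 7.93% above). Of cell markers, 4 of 7 megakaryocyte, 4 of 10 LSK, 2 of 6 T and NK cell, 1 of 13 granulocyte and 1 of 4 mast cell markers were called below 0. Of 6 endothelial and stromal markers 2 were called above 0, as was 1 of 6 B cell markers. Among 12 erythroid markers 1 lay above and 1 below, and 3 of 5 sex-linked genes lay below. Their part was not tested. Slc2a3 differed by -1.76 ± 0.20 (adjusted p = 1.19e-04), with 123 and 173 CPM in dKO and 146 CPM in both WT libraries. Pfkfb3 differed by -1.73 ± 0.17 (3.98e-06), with 42.9 and 47.0 CPM in dKO against 48.0 and 64.6 CPM in WT. Gpi1 differed by -0.75 ± 0.10 (4.40e-05), with 822 and 819.9 CPM in dKO. Aldoc was the member that differed upward (2.31 ± 0.26, 1.53e-05), since it rose in dKO and fell in Prmt1_KO. Hk1 rose in both and differed by -0.45 ± 0.10 (0.00646), a call lost without WT S2 (0.0558). Slc16a1 was level in Prmt1_KO (0.00) and fell in dKO (-0.48). Pgam1 and Gapdh rose in Prmt1_KO and fell in dKO, with differences of -0.96 ± 0.13 (9.72e-05) and -0.57 ± 0.11 (0.00155).

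**Figure D5:**
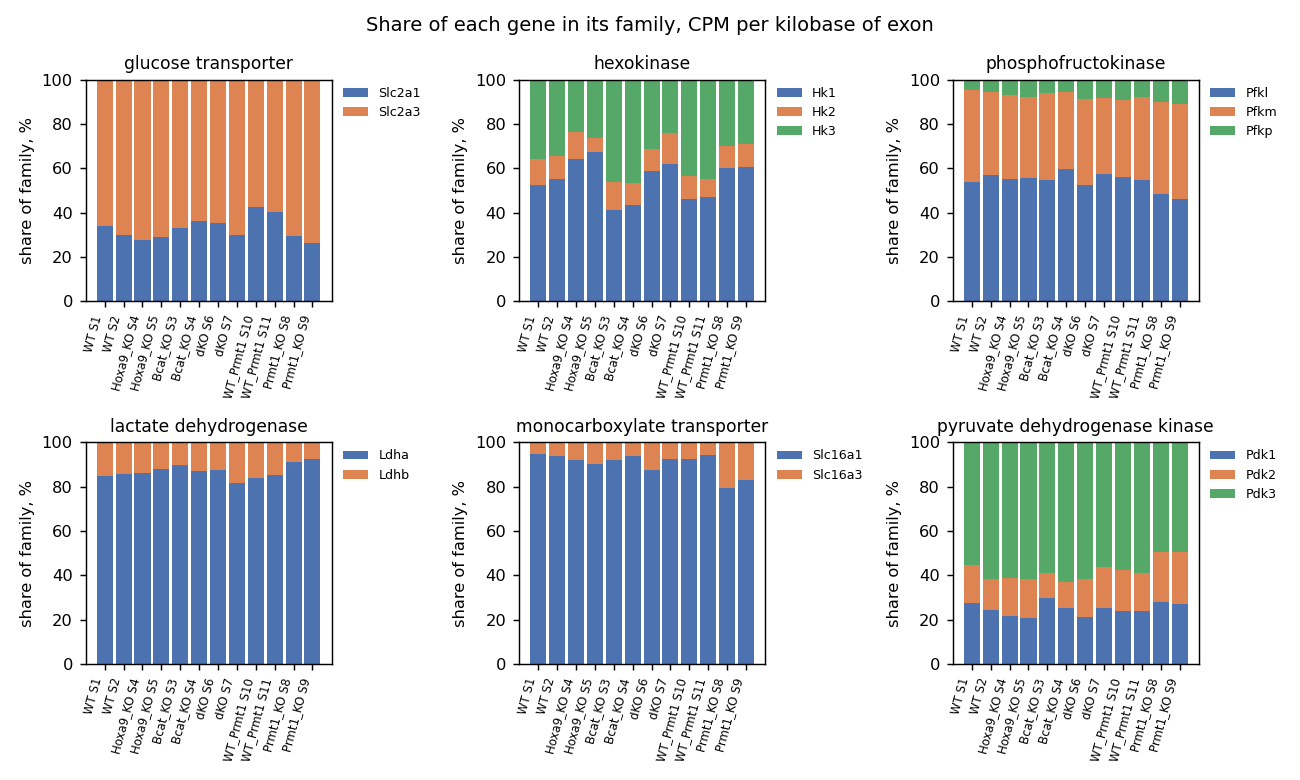
Percent of each gene in 6 families, from CPM per kilobase of exon, in each of the 12 libraries (bars sum to 100%). Hk3 takes its largest shares in Bcat_KO (46.1 and 46.8%), Ldhb its smallest (8.95 and 7.26%) and Slc16a3 its largest (20.7 and 17.1%) in Prmt1_KO.

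Seen across all 6 groups, hexokinase was, of the families with several members, the one whose composition varied most between groups. Hk1 made up 41.4 to 67.3% of the family by library, with the lowest mean in Bcat_KO (42.5%) and the highest in Hoxa9_KO (65.7%). The CPM of the 3 hexokinases added up to 391 and 404 in WT, against 523 and 504 with Hoxa9 targeted, 649 and 657 with β-catenin targeted and 594 and 616 with both. In the Prmt1 experiment the sums were 274 and 288 before and 524 and 544 after loss of the gene. Every targeted library thus lay above its own wild type. Pfkl and Pfkm together held most of the phosphofructokinases, with Pfkp between 4.65 and 10.8%.

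Other lists of related genes were counted in the same fits, in which 6.73% of all genes were called in Hoxa9_KO, 17.2% in Bcat_KO, 17.7% in dKO and 32.5% in Prmt1_KO, each against its wild type. Among 12 genes of pyruvate dehydrogenase and pyruvate entry, none rose in the 4 comparisons with wild type. In Hoxa9_KO 1 fell, in Bcat_KO 2, in dKO 1 and in Prmt1_KO 2. The mitochondrial pyruvate carrier genes Mpc1 (-0.76 ± 0.21, adjusted p = 0.0195) and Mpc2 (-0.52 ± 0.11, 0.00399) were the ones that fell in Bcat_KO. Pcx, pyruvate carboxylase (-1.33 ± 0.34, 0.00563), and Dlat, the E2 subunit (-0.36 ± 0.10, 0.00769), were those that fell in Prmt1_KO, where Pdha1 rose. The 8 pentose phosphate genes gave 2 higher and 3 lower in Prmt1_KO. The higher ones were Pgd (0.78 ± 0.08, 9.11e-07) and G6pdx (0.75 ± 0.11, 3.11e-05), the NADPH-producing dehydrogenases of the oxidative branch. In dKO the counts were 2 higher and 3 lower, in Hoxa9_KO 1 and 2, and in Bcat_KO 1 and 1.

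Glycogen and other sugar-entry genes, 18 in all, gave 4 higher and 4 lower in Prmt1_KO, 5 and 1 in dKO, 2 and 0 in Hoxa9_KO and 1 and 2 in Bcat_KO. Of 23 genes of gluconeogenesis and tissue-restricted isoforms 14 passed the filter, with 3 higher and 4 lower in Prmt1_KO, 3 and 0 in dKO, and 1 and 0 in each single knockout. The list of 31 hypoxia and glucose regulators had 13 higher and 3 lower in Prmt1_KO, against 16.6% of all genes higher and 16.0% lower. Ndrg1, a hypoxia-induced gene, rose by 1.62 ± 0.10 (adjusted p = 2.62e-09), from 45.7 and 55.7 to 157 and 156 CPM. It was at 109 and 104 CPM in WT, so WT_Prmt1 was lower than WT by 1.07 (2.04e-06). Other genes of this list went both ways: Bnip3l rose by 0.40 (0.00144) and Mxi1 by 0.52 (0.00191), while Car9 fell by 1.75 (6.53e-04) and P4ha1 by 0.94 (2.68e-05). Vegfa (-0.59) and Bnip3 (0.27) were not called, nor was Hif1a itself (-0.01), and a part of hypoxia was not tested. The third lower gene was Trp53 (-0.46, 1.52e-04). Among the other higher genes, Ddit4, an inhibitor of mTORC1 signalling, rose by 1.44 ± 0.10 (1.67e-08). Mlxip rose by 1.54 ± 0.14 (1.72e-07), from 39.9 and 37.5 to 104 and 121 CPM, and Myc by 0.75 (2.93e-05). Txnip, a brake on glucose uptake, rose by 1.27 ± 0.09 (8.74e-09) in the same libraries in which Slc2a3 and Slc2a1 rose. It was 0.86 lower in WT_Prmt1 than in WT (5.00e-06). In the other experiment it fell by 1.46 ± 0.09 (1.47e-08) in Bcat_KO, by 0.46 (0.00211) in Hoxa9_KO and by 0.49 (5.21e-04) in dKO. In the first experiment the regulators gave 6 higher and 2 lower without Hoxa9, 5 and 5 in Bcat_KO, and 6 and 5 in dKO. Arrdc4, a relative of Txnip, rose in all 4 comparisons with wild type, by 1.54 in Hoxa9_KO, 1.43 in Bcat_KO, 2.19 in dKO and 1.18 in Prmt1_KO, and was 1.19 higher in WT_Prmt1 than in WT.

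Members at low level give the least firm values. Pfkfb1, Pfkfb2, Eno2 and Pklr stayed at 6.42 CPM or less in every library, and none of them, nor Eno3 at 3.88 to 13 CPM, was called in a comparison with wild type. The SE was 0.44 to 0.98 for the former 4, so changes of those sizes could not be told from 0. Gapdh has 77 near-identical copies in the count table (at least 95% identity over 300 bases), which together held 7 to 11.4 CPM, or at most 0.703% of Gapdh. Pgk1, Pdha1, Pdk3 and Pfkfb1 lie on the X chromosome, so the Xist difference between wild-type and targeted libraries bears on them most directly, and its part was not tested.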

How the data were processed

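RNA was extracted from LSK cells with a Qiagen micro-scale kit and turned into libraries with a directional kit, per the labels' protocols. Whether the counting used strand is not given in the sources. The deposited values are raw gene counts. By the submitters' processing notes the authors used Trim Galore 0.6.6, STAR 2.7.6a and featureCounts on GRCm38/mm10. Even numbers made up 67.07 to 75.91% of the nonzero counts, so both mates of a read pair may have been counted, and precision is below what the totals imply.

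All 12 value columns were used. Gene identifiers were matched to GENCODE M21 (55230 of 55471, and the 241 unmatched held 0.0044% of the counts). Columns are tagged S1 to S11 and name no replicate. Low genes were removed with filterByExpr (minimum count 10), and the rest was scaled by TMM and fitted with edgeR 4.0.16 in R 4.3.3 (quasi-likelihood, a mean per group, 6 residual degrees of freedom, robust estimation). The SE was derived from the log2 change and its F value (their ratio after taking the root of F). Robust estimation was chosen after fits with it, without it and with several other combinations of settings had been seen, because it returned the call counts of earlier processing of these data. The fit without it stands among the alternatives, and 2 alternatives were chosen after seeing the data: that fit, with 19 members called in Prmt1_KO and 10 in dKO, and one without Bcat_KO. Where a symbol had several identifiers (Aldoa), the one with the most counts was used.

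The members and the lists were chosen with earlier results of these data known, so no test was made over a list. Genes named with values in every library were those among the 8 with the smallest adjusted p of a comparison of a targeted group with its wild type, or called in at least 2 of those 4 comparisons. Copies were found with blastn 2.17.0, and promoters were read from RefSeq windows. Alternatives were RLE and library-size scaling, no filter, a mean of at least 5 CPM, DESeq2 1.42.0, limma-voom (limma 3.58.1), fits of fewer groups and leaving out each library. On simulated counts of 17063 genes with 200 changed, a log2 change of 1 was recovered for 38.0% of genes in Hoxa9_KO, 43.0% in Bcat_KO, 36.5% in dKO and 43.5% in Prmt1_KO. A change of 0.5 was recovered for at most 1.0%. The changed genes were drawn from all levels, and in the data far more genes were called, 1149 in Hoxa9_KO to 5554 in Prmt1_KO. The simulation therefore does not give the power for the 32 members, and small changes may still be missed. Other tools were Python 3.11.15, pandas 2.3.3 and matplotlib 3.10.9.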

Additional observations from a re-analysis of the deposited data

Results flagged for a closer look

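These members had changes that differed between comparisons, by a contrast of group means in the edgeR fit. The contrast of dKO and Prmt1_KO also holds the difference between the wild types of the experiments. In departure from additivity of the β-catenin and Hoxa9 knockouts the log2 differences were -0.34 for Hk1, -0.82 for Hk3, 0.39 for Aldoa, -1.10 for Pgam1 and 0.68 for Pdk2. For the dKO change minus the Prmt1_KO change they were -0.45 for Hk1, -0.75 for Gpi1, -1.73 for Pfkfb3, -0.56 for Aldoa, 2.31 for Aldoc, -0.57 for Gapdh and -0.44 for Pgk1. For the other members they were -0.96 for Pgam1, -0.42 for Pkm, -0.89 for Slc2a1, -1.76 for Slc2a3, -0.49 for Slc16a1, -1.35 for Slc16a3 and -0.73 for Pdha1. Among the latter, 3 calls were lost without WT S2 and held in the other fits that left out a library: Hk1 (adjusted p = 0.0558), Pgk1 (0.0578) and Pkm (0.0658). Those of Slc16a1 and Slc16a3 were lost in most fits that left out a library. The causes were not tested.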

How the results depend on the processing

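No member called changed sign, but the median in dKO against Bcat_KO, 0.02, did. Of 155 values of counts, medians and sums under another setting, 135 stayed within their limits. DESeq2 called 7 members in Hoxa9_KO, with 12.3% of all genes. In dKO against Hoxa9_KO, RLE factors gave 1, no filter 3, a mean of at least 5 CPM 1 and DESeq2 2. Over all genes, 71 were higher and 227 lower in the main fit. The counts were 79 and 211 with RLE factors and 234 and 389 with no filter. They were 95 and 227 at 5 CPM and 222 and 391 with DESeq2. Departure from additivity gave 3 with limma-voom and 2 when fitted on its own groups or on 1 experiment. Over all genes, its calls went from 774 above and 665 below to 333 and 411 with limma-voom. On its own groups they were 413 and 542. WT_Prmt1 against WT gave 11 with only its groups, while all genes went from 633 higher and 661 lower to 1327 and 967. Fits on fewer groups held fewer libraries. The median in Prmt1_KO was 0.27 with library-size scaling, and in dKO against Bcat_KO -0.05 with it and -0.06 at 5 CPM. Summed CPM was 9024 in Bcat_KO and 8965 in Prmt1_KO with library-size scaling. Without Gapdh it was 6470.0 in WT, 6326 in Hoxa9_KO, 6928 in Bcat_KO, 6588 in dKO, 5716 in WT_Prmt1 and 7756 in Prmt1_KO. Other causes were not tested. Leaving out 1 library gave 3 to 4 members called in Hoxa9_KO, 3 to 5 in Bcat_KO, 7 to 13 in dKO, 14 to 17 in Prmt1_KO, 0 to 2 in dKO against Hoxa9_KO, 10 to 13 in dKO against Bcat_KO, 2 to 5 for additivity, 10 to 15 for dKO minus Prmt1_KO and 2 to 6 in WT_Prmt1 against WT. Medians then ran from -0.09 to -0.03 in Hoxa9_KO, 0.02 to 0.06 in Bcat_KO, 0.01 to 0.15 in dKO, 0.27 to 0.54 in Prmt1_KO, 0.07 to 0.17 in dKO against Hoxa9_KO and -0.16 to 0.10 in dKO against Bcat_KO. A group left with 1 library was assumed to vary like the others. Shares of all genes called are not given for the fits that left out a library, so their counts of members have no background here. No paired analysis was possible because the columns carry no replicate numbers, and S4 occurs in both Bcat_KO and Hoxa9_KO, so the fit with the replicate as a block was not run. Depth limits the 4 members at 6.42 CPM or less.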

Other observations

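For some members the libraries of 1 group lay far apart. Eno2, the neuronal enolase, was at 5.02 CPM in Bcat_KO S3 and at 0.236 CPM in Bcat_KO S4, the highest and the lowest of its 12 values. Pklr, the liver and red cell pyruvate kinase, was at 6.42 CPM in dKO S6 and at 0.531 CPM in dKO S7, again the highest and the lowest of the 12. It shares 711 exon bases with Hcn3 on the opposite strand. Hk2 was at 53.3 CPM in Hoxa9_KO S4 and at 27.0 CPM in Hoxa9_KO S5, with WT at 41.4 and 37.2 CPM. Slc2a3 was at 123 and 173 CPM in dKO, and Ldhb at 62.1 and 99.2 CPM. These spreads are given as values only.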
